A study of Arabidopsis thaliana with 8 samples.

Results

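UDP-glycosyltransferases (UGTs) move a sugar from a UDP-sugar onto a small acceptor molecule. In plants the acceptors include flavonoids, hydroxycinnamic acids, the thiohydroximate precursors of glucosinolates, sterols and hormones such as auxin, cytokinin, abscisic acid and salicylic acid. The sugar usually makes the product more soluble and less active, and many products are stored in the vacuole. A UGT symbol gives the group number first, then a subgroup letter and a gene number, so UGT71C1 and UGT71C2 are close relatives. The genes described here are all those whose probe set the annotation lists with 1 gene and a symbol starting with UGT and a number. The monolignol glucosyltransferases of UGT72E were set aside. There were 44 such genes, each with 1 probe set, among 22746 probe sets tested, in 11 UGT groups, and each gene matched a RefSeq locus. A further 3 probe sets that each list a UGT beside another gene were left out.

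Roots of wild-type Columbia seedlings of Arabidopsis thaliana, 6 days old and grown at 22 °C, were the source of every sample. Root tips of about 1 cm were turned into protoplasts, and cells marked by green fluorescent protein were sorted into 3 populations: differentiating xylem (n = 3 arrays), phloem, meaning sieve and companion cells (n = 2), and cortex (n = 3). Which marker lines drove the fluorescence is not stated in the labels. The arrays of a population are labelled as biological replicates, without saying whether these were separate cultures, so p-values measure the spread between these arrays. With 2 or 3 arrays a population, precision was limited by their number. Each array sums RNA over the sorted cells, so fewer expressing cells and less RNA per cell cannot be told apart.

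Markers of each population were checked first. The 3 measured xylem genes were higher in xylem than in both others, 4 of 5 phloem genes were higher in phloem than in cortex, and 3 of 4 cortex genes were lower in xylem and in phloem than in cortex. The fourth cortex marker, AT1G62500, was low, at 4.55 to 19.3 in xylem and 16.6 to 34.8 in phloem, against 8.72 to 24.2 in cortex, and passed in no comparison. The single measured endodermis marker, SGN3, was also lower in xylem and phloem than in cortex (-2.38 and -1.77 on the log2 scale). Of 5 listed root hair markers 2 were measured. Their summed intensity was 18.1 to 53.0 in xylem and 270.2 to 399.8 in phloem, against 94.2 to 133.0 in cortex. It was thus highest in phloem, as were the means of 11 of the 44 UGT genes, UGT71C3 and UGT73D1 among them, and of 34.2% of all probe sets. Root hair cells as a source of UGT signal were not tested. The summed intensity of the cortex markers was 36.9 to 66.0 on the xylem arrays and 111.3 to 112.0 on the phloem arrays, against 3623 to 4575 on the cortex arrays. Median intensity was 41.2 to 42.7 in xylem and 70.3 to 73.6 in phloem, against 61.4 to 62.4 in cortex. The 3'/5' ratio of a GAPDH control, a sign of RNA quality and amplification, was 4.89 to 9.74 in xylem and 5.91 to 8.79 in phloem, against 1.98 to 2.60 in cortex. It therefore moved with every comparison against cortex below, and its part in them was not tested.

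Most UGT genes had their highest signal in cortex. The mean of log2(intensity + 16) was highest in cortex for 28 of 44 probe sets, in phloem for 11 and in xylem for 5, where over all probe sets the shares were 37.2%, 34.2% and 28.5%. Levels and fold changes are on this scale, and all adjusted p-values are limma's. The counts of highest means include 9 members with means under 16 in every population, for which the order of the populations has no support. In xylem 22 members were lower than in cortex and 2 were higher, at an adjusted p under 0.05 from limma, a linear model fitted across all probe sets. Over all probe sets 29.1% were lower and 13.5% higher in that comparison. In phloem 14 members were lower than in cortex and 3 were higher, against 14.8% lower and 12.2% higher over all probe sets. Between the vascular populations 11 members were lower and 3 higher in xylem than in phloem, against 28.5% lower and 13.9% higher over all probe sets, so the count of lower members lay near the background. At least 4-fold lower than in cortex were 13 members in xylem and 8 in phloem, against 8.0% and 1.81% of all probe sets. Every xylem array lay below every cortex array for 25 members, against 34.7% of all probe sets, and every phloem array did for 26, against 30.5%. The median log2 fold change of the 44 members was -1.08 for xylem over cortex, -0.59 for phloem over cortex and -0.23 for xylem over phloem, the last turning to 0.37 after median centring and 0.02 after quantile normalization. For all probe sets these medians were -0.14, -0.03 and -0.15. The comparisons share arrays, so their counts are not independent.

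**Figure D1:**
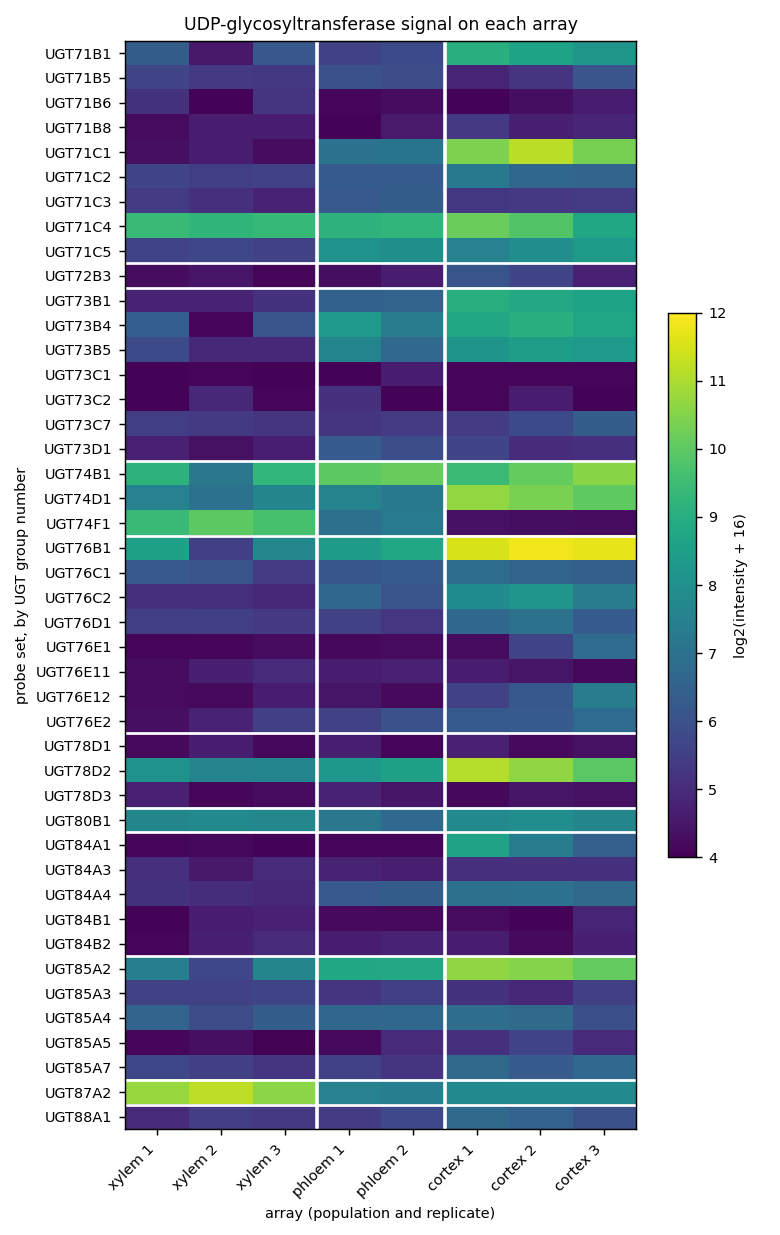
The colour gives log2(intensity + 16) of each of the 44 probe sets (rows, by UGT group number) on each of the 8 arrays (columns, xylem, phloem, cortex). Most bright cells lie in the cortex columns, while UGT74F1 and UGT87A2 are brightest in xylem.

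The balance of calls depended in part on how the arrays were scaled. For xylem over cortex, the members called numbered 2 higher and 22 lower as deposited, but 6 and 19 after each array was centred on its median and 2 and 32 after scaling to the hybridisation spike-in controls. For phloem over cortex the 3 higher and 14 lower became 2 and 18 after median centring, 1 and 16 after quantile normalization and 1 and 27 after spike-in scaling. For xylem over phloem the 3 higher and 11 lower turned to 10 and 8 after median centring. In xylem over cortex the median of all probe sets, -0.14 as deposited, became 0.29 with median centring, -0.76 with the spike-in controls and 0.04 with quantile normalization. In phloem over cortex, where it was -0.03 as deposited, these scalings gave -0.20, -0.41 and -0.08. The log2 fold changes below are on the deposited scale unless another is named. No fold change of a member that passed the test, or that reached 1 in size without passing, changed sign under any alternative.

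**Figure D2:**
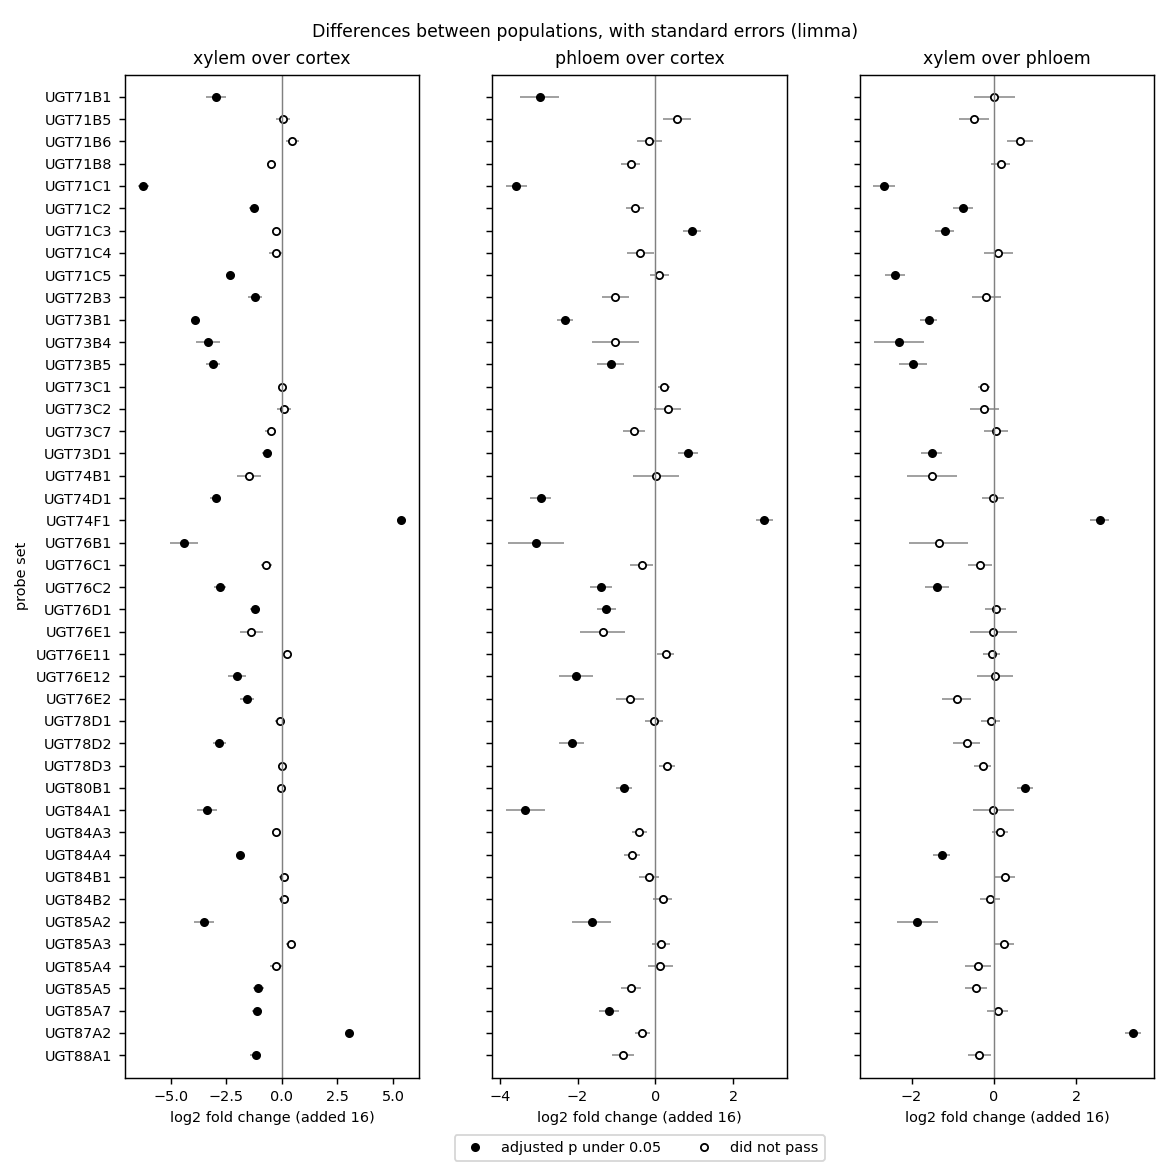
Points give the log2 fold change of each of the 44 probe sets for xylem over cortex, phloem over cortex and xylem over phloem, with the standard error as bars. Filled points passed an adjusted p under 0.05, and in the cortex comparisons most filled points lie left of 0 (22 of 24 and 14 of 17).

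Enrichment in 1 population required a pass of the test and a level at least 2-fold above each of the others. By this rule 13 of 44 members were enriched in cortex, where 6.31% of all probe sets were. In xylem 2 members were enriched, against 5.57% of all probe sets, and in phloem none was, against 6.1%. Without phloem replicate 2 the cortex count was 7, with 1 phloem array left and assumed to vary like the other populations. After spike-in scaling it was 20. The counts by UGT group below each rest on few genes, and over all probe sets 29.1% were lower in xylem and 14.8% lower in phloem than in cortex.

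The xylem-enriched members were UGT74F1 and UGT87A2. UGT74F1 (AT2G43840), which forms the glucoside of salicylic acid, had intensities of 650.8, 1006 and 799.3 in xylem and 107.1 and 140.8 in phloem, against 4.84, 3.75 and 3.16 in cortex. No array of one population overlapped those of another, so the order was xylem, phloem, cortex. The log2 fold change was 5.37 (SE 0.20) for xylem over cortex, 2.80 (SE 0.23) for phloem over cortex and 2.56 (SE 0.23) for xylem over phloem, with limma adjusted p-values of 1.99e-07, 4.3e-05 and 3.84e-05. Since the cortex signal lay under the added 16, the size rests on it: with 1 added in place of 16 xylem over cortex came to 7.37 and phloem over cortex to 4.67. UGT87A2 (AT2G30140), which acts on flowering time, had 1737, 2321 and 1549 in xylem and 169.0 and 156.4 in phloem, against 214.1, 212.7 and 204.0 in cortex. It was higher in xylem by 3.04 (SE 0.17) over cortex and by 3.38 (SE 0.19) over phloem, with limma adjusted p-values of 1.74e-06 and 2.92e-06. In phloem it lay below every cortex array by a small margin, and the difference of -0.34 (SE 0.19) did not pass (limma adjusted p = 0.244).

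UGT group 71, which includes enzymes of flavonoids and abscisic acid, had 9 members, of which 4 were lower in xylem than in cortex and 2 were lower and 1 higher in phloem than in cortex. UGT71C1 (AT2G29750), which can glucosylate flavonoids, had 4.02, 8.81 and 3.25 in xylem and 114.9 and 121.9 in phloem, against 1358, 2280 and 1287 in cortex. Xylem thus kept 0.20% to 0.54% of the mean cortex intensity and phloem 7.0% and 7.43%, with no overlap between any populations. Against cortex it was lower by -6.24 (SE 0.24) in xylem and -3.58 (SE 0.27) in phloem, with limma adjusted p-values of 2.04e-07 and 2.54e-05, and the xylem value was -8.06 with 1 added and -4.57 with 64 added. The difference of -2.66 (SE 0.27) for xylem over phloem also passed (limma adjusted p = 7.42e-05), and with 1 added it was -4.33. UGT71B1 (AT3G21750) had 65.4, 7.47 and 56.5 in xylem and 31.1 and 40.1 in phloem, against 526.6, 384.0 and 287.4 in cortex. Both vascular populations lay below cortex, by -2.96 (SE 0.45) and -2.97 (SE 0.51), with limma adjusted p-values of 0.00071 and 0.0026, and xylem replicate 2 was the lowest array.

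UGT71C5 (AT1G07240), which conjugates abscisic acid to glucose, followed another pattern. Its intensities were 33.1, 36.1 and 31.1 in xylem and 258.4 and 237.0 in phloem, against 172.9, 225.1 and 310.4 in cortex. Phloem lay within the cortex range (difference 0.10, SE 0.24, limma adjusted p = 0.828), while xylem was lower than phloem by -2.42 (SE 0.24) and lower than cortex by -2.32 (SE 0.22). UGT71C3 (AT1G07260), which glucosylates methyl salicylate, had 26.5, 18.3 and 11.5 in xylem and 58.6 and 66.7 in phloem, against 23.5, 24.6 and 26.3 in cortex. It was one of 3 members higher in phloem than in cortex, by 0.95 (limma adjusted p = 0.0134), a call that was lost without phloem replicate 1 (adjusted p = 0.0531) or 2 (adjusted p = 0.0943), after quantile normalization (0.71, adjusted p = 0.071) and after spike-in scaling (0.53, adjusted p = 0.0662). UGT71C2 was lower in xylem than in cortex by -1.27. Its difference of -0.75 between xylem and phloem (adjusted p = 0.0314) was lost without phloem replicate 1 or 2 (adjusted p = 0.125 and 0.123) and without xylem replicate 2 or 3 (adjusted p = 0.0524 and 0.064). It shrank to -0.14 after median centring (adjusted p = 0.636) and to -0.21 after quantile normalization (adjusted p = 0.526). UGT71C4 was bright in all populations, with 649.0, 581.6 and 640.3 in xylem and 559.6 and 595.8 in phloem, against 1145, 893.4 and 428.3 in cortex, and passed in no comparison, as did UGT71B5. UGT71B6, which acts on abscisic acid, and UGT71B8 stayed at population means under 16.

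UGT group 73 had 7 members, of which 4 were lower in xylem than in cortex. The subgroup 73B, whose members UGT73B3 and UGT73B5 take part in resistance to bacterial infection, was high in cortex in each of its 3 measured genes. UGT73B1 (AT4G34138) had 12.1, 11.8 and 19.7 in xylem and 73.5 and 76.8 in phloem, against 506.6, 438.7 and 384.9 in cortex. The populations did not overlap, and all 3 differences passed: -3.91 (SE 0.19) for xylem over cortex, -2.33 (SE 0.21) for phloem over cortex and -1.59 (SE 0.21) for xylem over phloem. UGT73B5 (AT2G15480) had 39.4, 13.9 and 13.9 in xylem and 177.2 and 90.3 in phloem, against 264.9, 339.2 and 306.1 in cortex. Its order was the same, with -3.11 (SE 0.31) for xylem over cortex. For phloem over cortex it had -1.15 (SE 0.35, limma adjusted p = 0.0388), and this call was lost without phloem replicate 2 (-0.72, adjusted p = 0.305) and without any 1 of the cortex replicates (adjusted p = 0.0648, 0.116 and 0.0886 without replicates 1, 2 and 3), as well as with 1 added (-1.25, adjusted p = 0.0915).

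UGT73B4 (AT2G15490), the neighbour of UGT73B5, had 67.2, 1.45 and 51.55 in xylem and 299.9 and 148.3 in phloem, against 427.5, 527.0 and 408.7 in cortex. Xylem was lower than cortex by -3.34 (SE 0.54) and lower than phloem by -2.30 (SE 0.60), with limma adjusted p-values of 0.000976 and 0.0135. Without xylem replicate 2, the array at 1.45, these came to -2.64 and -1.60 and still passed, and the phloem difference from cortex of -1.04 then passed too (adjusted p = 0.0211, against 0.26 with all arrays). With all arrays it also passed after spike-in scaling (-1.63, adjusted p = 0.0345) and with only phloem and cortex fitted (adjusted p = 0.0351). Without phloem replicate 1 the difference between xylem and phloem was -1.83 and did not pass (adjusted p = 0.118). UGT73D1 (AT3G53150) had 10.9, 4.31 and 9.73 in xylem and 63.2 and 44.1 in phloem, against 34.9, 16.7 and 18.4 in cortex. It was lower in xylem than in phloem by -1.52 (limma adjusted p = 0.00143) and higher in phloem than in cortex by 0.84 (adjusted p = 0.0399). The call against cortex was lost without phloem replicate 1 (adjusted p = 0.227) or 2 (adjusted p = 0.0717), cortex replicate 2 (adjusted p = 0.126) or 3 (adjusted p = 0.109), or xylem replicate 1 (adjusted p = 0.053) or 3 (adjusted p = 0.0557). It was also lost after median centring (0.67, adjusted p = 0.0817), quantile normalization (0.61, adjusted p = 0.133) and spike-in scaling (0.45, adjusted p = 0.22), with 1 added (1.22, adjusted p = 0.134) and with only phloem and cortex fitted (adjusted p = 0.0542). Its difference between xylem and cortex of -0.68 (adjusted p = 0.0416) was lost without any 1 of the xylem replicates (adjusted p = 0.0565, 0.113 and 0.0684 for replicates 1, 2 and 3) and without cortex replicate 1 or 3 (adjusted p = 0.133 and 0.0594). It was -0.24 after median centring (adjusted p = 0.392), -0.52 after quantile normalization (adjusted p = 0.115) and -0.59 after trimmed-mean scaling (adjusted p = 0.064), and with 64 added it was -0.27 (adjusted p = 0.0626). UGT73C7 passed in no comparison, and UGT73C1 and UGT73C2 stayed at means under 16 in every population.

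UGT group 74 split between populations. UGT74F1 was xylem-enriched, as given above. UGT74D1 (AT2G31750), which glucosylates auxins, had 169.6, 109.3 and 187.6 in xylem and 176.6 and 135.1 in phloem, against 1644, 1326 and 1024 in cortex. The vascular populations overlapped and lay below every cortex array, by -2.98 (SE 0.24) in xylem and -2.96 (SE 0.27) in phloem, with limma adjusted p-values of 1.59e-05 and 8.93e-05. UGT74B1 (AT1G24100), which adds the glucose of the glucosinolate core, had 561.3, 126.7 and 618.5 in xylem and 991.7 and 1111 in phloem, against 678.0, 1083 and 1524 in cortex. Every xylem array was below every array of the others, and the differences of -1.50 from cortex and -1.51 from phloem did not pass (limma adjusted p = 0.0521 and 0.0748). Leaving out 1 array moved the cortex difference across the threshold in 3 cases: -1.81 (adjusted p = 0.045) without xylem replicate 1, -1.88 (adjusted p = 0.0319) without xylem replicate 3 and -1.80 (adjusted p = 0.0463) without cortex replicate 1. Without xylem replicate 3 the phloem difference also passed (-1.89, adjusted p = 0.0441), and without xylem replicate 2, the array at 126.7, the differences were -0.80 and -0.82 and did not pass. With all arrays, both passed after spike-in scaling (-2.43 from cortex, adjusted p = 0.00261, and -1.84 from phloem, adjusted p = 0.0281) and with probe sets under the median left out (adjusted p = 0.0302 and 0.0466). The phloem difference also passed after quantile normalization (-1.47, adjusted p = 0.0466).

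UGT group 76 had 8 members, with 5 lower in xylem and 4 lower in phloem than in cortex and none higher. It held 4 of the 13 cortex-enriched members. UGT76B1 (AT3G11340), which conjugates isoleucic acid and salicylic acid, had 367.2, 30.0 and 191.9 in xylem and 325.9 and 431.3 in phloem, against 2933, 3646 and 3303 in cortex. The gap to cortex was wide on every array, -4.42 (SE 0.64) in xylem and -3.08 (SE 0.71) in phloem, with limma adjusted p-values of 0.000508 and 0.0119. Without xylem replicate 2 the xylem value was -3.55, and without xylem replicate 1 it was -5.07. The phloem call was lost with 1 phloem array left (-2.88, adjusted p = 0.0871 without replicate 1 and -3.27, adjusted p = 0.0645 without replicate 2). Xylem and phloem differed by -1.34 (adjusted p = 0.169), which was -0.47 without xylem replicate 2 and passed at -2.0 (adjusted p = 0.0324) without xylem replicate 1.

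The cytokinin N-glucosyltransferases UGT76C1 and UGT76C2 are neighbours that both had their highest mean in cortex. UGT76C2 (AT5G05860) had 18.1, 17.8 and 14.0 in xylem and 87.8 and 53.2 in phloem, against 219.7, 271.9 and 149.1 in cortex. All 3 populations were apart, at -2.78 (SE 0.26) for xylem over cortex, -1.40 (SE 0.29) for phloem over cortex and -1.38 (SE 0.29) for xylem over phloem. With 1 phloem array some calls were lost: phloem over cortex was -1.11 (adjusted p = 0.0787) without phloem replicate 2, and xylem over phloem was -1.09 (adjusted p = 0.0527) without phloem replicate 1. UGT76C1 (AT5G05870) had 59.6, 51.0 and 25.8 in xylem and 54.9 and 65.0 in phloem, against 97.9, 78.3 and 69.0 in cortex, and passed in no comparison (for xylem over cortex, limma adjusted p = 0.0564).

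UGT76D1 (AT2G26480), which glucosylates dihydroxybenzoic acids formed from salicylic acid, had 29.1, 29.4 and 24.5 in xylem and 30.3 and 22.8 in phloem, against 85.4, 113.4 and 64.6 in cortex. Xylem and phloem overlapped, and both were lower than cortex by -1.23 and -1.27, with limma adjusted p-values of 0.00185 and 0.00519. UGT76E12 (AT3G46660) had 2.82, 2.5 and 8.71 in xylem and 6.08 and 2.33 in phloem, against 31.6, 57.2 and 147.8 in cortex. It was lower by -2.02 (SE 0.40) in xylem and -2.04 (SE 0.44) in phloem, and since the vascular signal lay under 16, these became -3.70 and -3.76 with 1 added. The phloem calls of UGT76D1 (adjusted p = 0.0581) and UGT76E12 (adjusted p = 0.0785) were lost without phloem replicate 2. UGT76E2 was lower in xylem than in cortex by -1.57 (limma adjusted p = 0.00368). UGT76E1, from the pair that glucosylates hydroxyjasmonate, had 1.79, 1.46 and 3.35 in xylem and 1.85 and 2.88 in phloem, against 3.13, 33.6 and 94.3 in cortex. It passed in no comparison on the deposited scale with 16 added. With 1 added, xylem over cortex was -2.95 and passed (adjusted p = 0.0371), as it did after spike-in scaling (-1.73, adjusted p = 0.025), and without cortex replicate 1, the array at 3.13, it passed for xylem over cortex (-2.02, adjusted p = 0.00137) and phloem over cortex (-2.01, adjusted p = 0.00464). UGT76E11 stayed at means under 16.

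**Figure D3:**
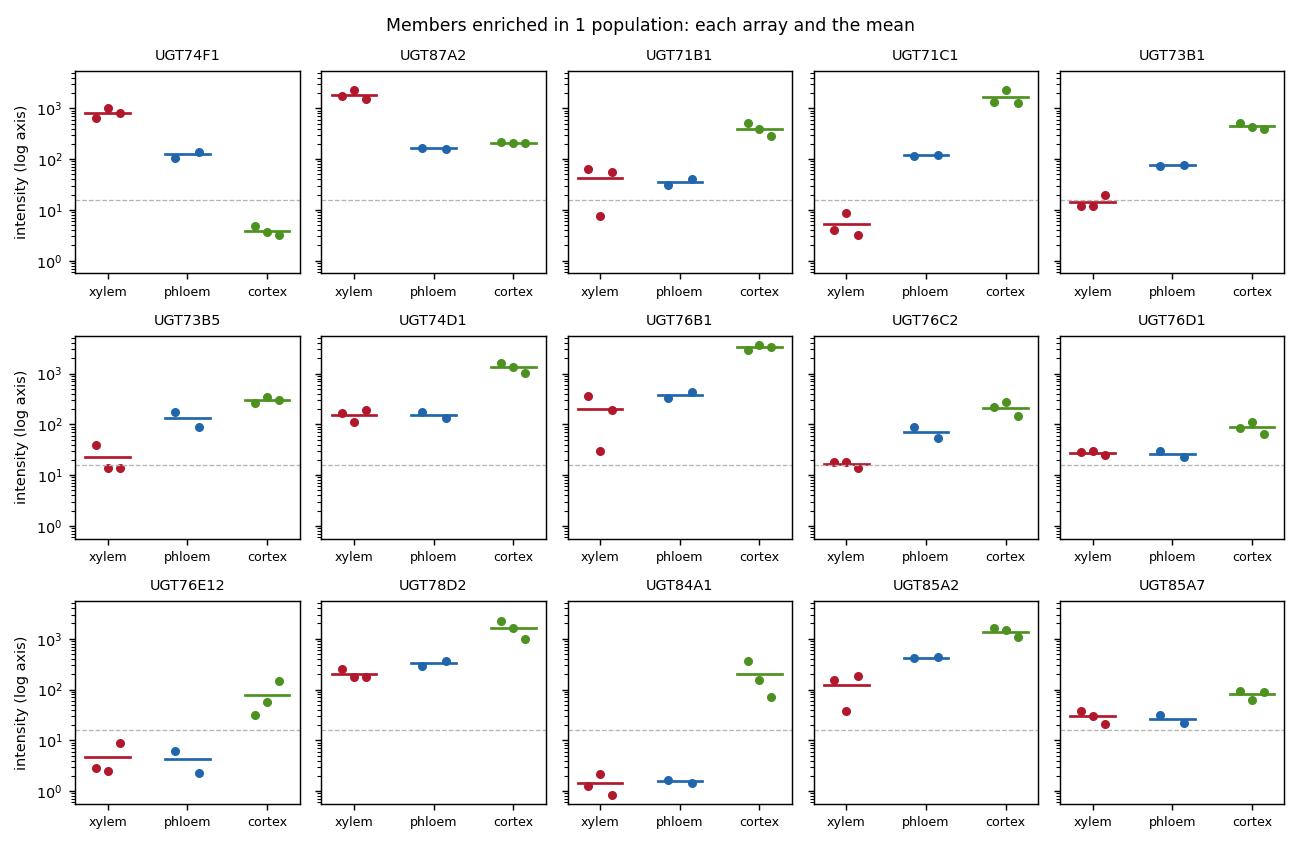
Each panel shows the intensity of one enriched member on a log axis, with a point per array and a line at the population mean; the dashed line marks the added 16. UGT74F1 and UGT87A2 are highest in xylem, and the other 13 panels have every cortex array above every xylem and phloem array.

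Flavonoid and hydroxycinnamate enzymes of groups 78 and 84 each had 1 cortex-enriched member, UGT78D2 and UGT84A1. UGT78D2 (AT5G17050), the flavonoid 3-O-glucosyltransferase, had 258.8, 176.8 and 180.4 in xylem and 293.8 and 368.4 in phloem, against 2199, 1633 and 978.7 in cortex. It was lower by -2.82 (SE 0.29) in xylem and -2.16 (SE 0.32) in phloem, with limma adjusted p-values of 6.52e-05 and 0.00136. The rhamnosyl- and arabinosyltransferases of flavonols, UGT78D1 and UGT78D3, had means under 16 in all populations. UGT84A1 (AT4G15480), which makes glucose esters of hydroxycinnamic acids, had 1.27, 2.15 and 0.857 in xylem and 1.68 and 1.47 in phloem, against 372.6, 152.0 and 71.8 in cortex. The cortex arrays spread widely, yet the lowest of them stood far above every vascular array. The fold change of -3.36 (SE 0.45) in xylem and -3.35 (SE 0.50) in phloem was -6.09 and -5.97 with 1 added, and -1.84 for both with 64 added.

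UGT84A4 (AT4G15500), from the same subgroup, had 19.7, 17.4 and 13.4 in xylem and 59.2 and 66.7 in phloem, against 107.8, 114.8 and 92.6 in cortex. It was lower in xylem than in cortex by -1.88 (limma adjusted p = 4.76e-05) and than in phloem by -1.27 (adjusted p = 0.00114), while phloem and cortex, which did not overlap, differed by -0.61 (adjusted p = 0.0575). UGT84A3, between UGT84A1 and UGT84A4 on chromosome 4, had 18.9, 7.32 and 15.5 in xylem and 11.7 and 9.47 in phloem, against 18.8, 19.6 and 19.6 in cortex, and passed in no comparison. UGT84B1, which makes the glucose ester of auxin, and UGT84B2 had means under 16 throughout. The sterol glucosyltransferase UGT80B1 (AT1G43620) was low in phloem, with 187.3, 208.5 and 193.8 in xylem and 131.8 and 90.7 in phloem, against 204.6, 225.5 and 184.9 in cortex. Xylem and cortex overlapped, and phloem was lower than cortex by -0.81 (limma adjusted p = 0.0146) and xylem higher than phloem by 0.76 (adjusted p = 0.0129). Without phloem replicate 2 these were -0.58 (adjusted p = 0.134) and 0.52 (adjusted p = 0.119), and the first was also lost without cortex replicate 2 (-0.75, adjusted p = 0.0583) and the second after spike-in scaling (0.43, adjusted p = 0.162).

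Group 85 had 5 members, 3 lower in xylem and 2 lower in phloem than in cortex. UGT85A2 (AT1G22360) had 155.0, 37.3 and 182.7 in xylem and 418.1 and 435.2 in phloem, against 1625, 1460 and 1067 in cortex. Xylem lay -3.50 (SE 0.44) below cortex and -1.86 (SE 0.50) below phloem, and without xylem replicate 2 these were -2.90 and -1.26 and still passed. The phloem difference from cortex of -1.64 (limma adjusted p = 0.0384) did not pass without phloem replicate 1 (adjusted p = 0.16) or 2 (adjusted p = 0.16), cortex replicate 1 (adjusted p = 0.103), 2 (adjusted p = 0.103) or 3 (adjusted p = 0.0527), or with 1 added (-1.67, adjusted p = 0.0645). The xylem difference from phloem was also lost without phloem replicate 1 (adjusted p = 0.0734) or 2 (adjusted p = 0.0834) and after median centring (-1.25, adjusted p = 0.0519). UGT85A7 (AT1G22340) had 37.6, 30.2 and 21.4 in xylem and 31.9 and 21.6 in phloem, against 93.9, 63.2 and 90.4 in cortex, and was lower by -1.11 and -1.20. Its phloem call was lost without phloem replicate 2 (-1.03, adjusted p = 0.0849). UGT85A5 had 1.25, 3.91 and 0.564 in xylem and 2.36 and 15.7 in phloem, against 18.2, 33.0 and 14.9 in cortex. It was lower in xylem than in cortex by -1.06 (adjusted p = 0.0063), which was -3.08 with 1 added and did not pass after median centring (-0.63, adjusted p = 0.0566). UGT85A3 and UGT85A4 passed in no comparison.

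Groups 72 and 88 had 1 member each. UGT72B3 (AT1G01420), outside the excluded UGT72E genes, had 3.37, 5.87 and 1.10 in xylem and 3.46 and 8.85 in phloem, against 51.6, 34.7 and 10.4 in cortex, so one cortex array lay close to the vascular ones. It was lower in xylem by -1.21 (limma adjusted p = 0.012), which was -2.80 with 1 added and did not pass after median centring (-0.78, adjusted p = 0.0622). The phloem difference of -1.03 (adjusted p = 0.0593) passed without cortex replicate 3 (-1.41, adjusted p = 0.00362), after median centring (-1.21, adjusted p = 0.0294) and after spike-in scaling (-1.40, adjusted p = 0.0146). UGT88A1 (AT3G16520) had 14.8, 27.7 and 24.0 in xylem and 26.9 and 38.1 in phloem, against 92.6, 75.0 and 47.5 in cortex. It was lower in xylem by -1.18 (limma adjusted p = 0.00501), and phloem did not pass (-0.83, adjusted p = 0.0628).

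Across groups, 26 of the 44 members passed in at least 1 comparison and 18 in none, where 57.1% of all probe sets passed in at least 1, a share close to that of the members. Of those 18, 9 had a mean intensity under 16 in every population, a level not shown to exceed background because the table holds no detection calls. Lower calls in both vascular populations against cortex were made for 13 members, which are the cortex-enriched ones, against 9.63% of all probe sets. A further 8 were called lower in xylem but in neither direction in phloem, against 17.5% of all probe sets, and UGT73D1 was called lower in xylem and higher in phloem. A total of 10 members were called lower in xylem than in both phloem and cortex, against 19.1% of all probe sets, so these last counts lay near the background. In phloem over cortex 14 members were called lower with all arrays, with 3 higher. Without phloem replicate 2 the counts were 7 lower and 1 higher, and without phloem replicate 1 they were 12 lower and 2 higher.

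Several UGT genes lie next to each other, and the runs of neighbours were compared. In the gene order of the TAIR10.1 assembly, 31 members fell into 13 runs in which a member was at most 5 protein-coding genes from the next. The remaining 13 had no other member that near. Only the 44 members were placed in runs, while RefSeq has 58 genes with a UGT symbol and number. Other UGT genes may therefore lie beside any member, also one without a run. In 6 of the 13 runs all members had their highest mean in the same population. A member with means under 16 throughout, for which the order of the populations has no support, stood in 5 of the runs, and in the other 8 runs the members shared a highest population in 5. The shared population was cortex in each of those 5 runs, though their members UGT84A3, UGT76C1 and UGT76E1 passed in no comparison on the deposited scale with 16 added. Since cortex was highest for 28 of all 44 members, no likeness of neighbours was read from this count. UGT71C1 and UGT71C2 on chromosome 2 were both highest in cortex, and their log2 fold changes for xylem over cortex were 4.97 apart. The 4 neighbours UGT85A7, UGT85A2, UGT85A5 and UGT85A3 on chromosome 1 spanned 3.90 in the same comparison, with UGT85A3 highest in xylem at a difference that did not pass. The neighbours UGT73B4 and UGT73B5 were 0.23 apart for xylem over cortex and 0.11 apart for phloem over cortex, less than the standard errors of either gene. Other pairs were closer for xylem over cortex, such as UGT76E1 and UGT76E2 at 0.19, with 0.70 for phloem over cortex. On chromosome 1, UGT71C5 and UGT71C3 had their highest mean in phloem and UGT71C4, between them, in cortex. However, the phloem arrays of UGT71C5 lay within its cortex range, and UGT71C4 passed in no comparison. Their highest populations were therefore not told apart by the test.

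**Figure D4:**
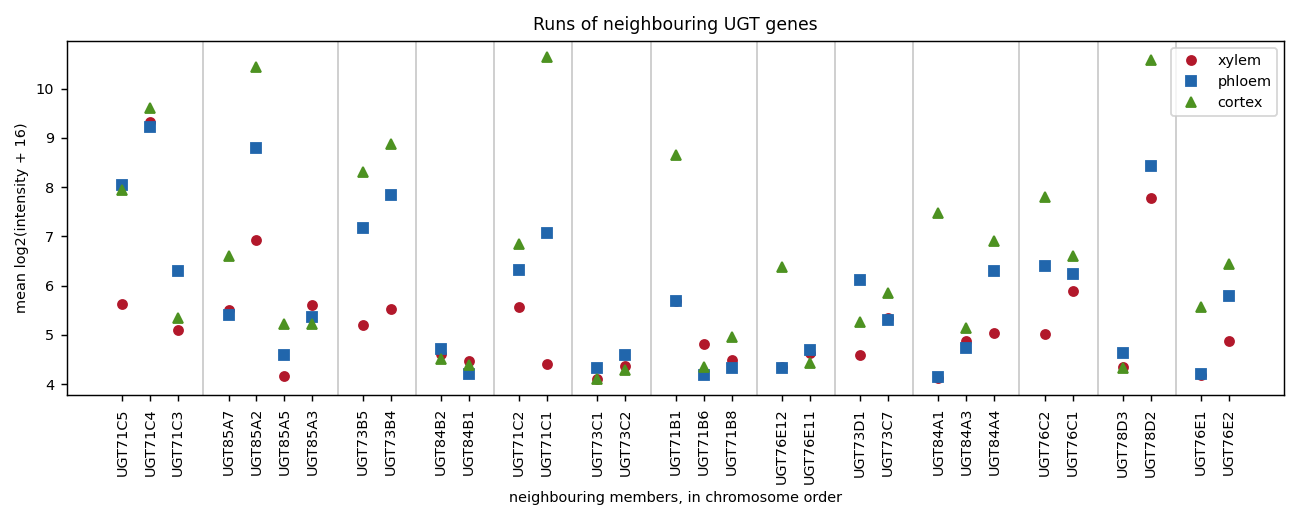
Symbols give the mean log2(intensity + 16) of xylem, phloem and cortex for the 31 members in 13 runs of neighbouring genes, in chromosome order, with grey lines between runs. Cortex stands highest in all members of some runs, such as UGT84A1 to UGT84A4, though UGT84A3 passed in no comparison. In others, such as UGT85A7 to UGT85A3, it is highest in only some members. Levels of different genes are not comparable.

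Xylem replicate 2 had the lowest signal of the 3 xylem arrays for 7 of the 13 cortex-enriched members. Over all 1435 cortex-enriched probe sets it was lowest in 51.5%, and over all probe sets in 41.4%. The gap was wide for UGT76B1, which kept 11.1%, 0.91% and 5.83% of its mean cortex intensity on xylem arrays 1, 2 and 3, and for UGT71B1, with 16.4%, 1.87% and 14.2%. UGT71C1 went the other way, with 0.25%, 0.54% and 0.20%, at intensities of 4.02, 8.81 and 3.25. The cortex marker AT1G09750 kept 0.35%, 0.87% and 0.61% on the same arrays, AT1G62510 0.13%, 0.16% and 0.22%, and AT5G02000 4.85%, 7.82% and 8.24%. For none of these 3 markers was replicate 2 the lowest xylem array, and for AT1G09750 it was the highest. Replicate 2 also had the highest GAPDH 3'/5' ratio, 9.74, and whether this bears on the UGT values was not tested. On the phloem arrays, AT1G09750 kept 1.68% and 1.61%, AT1G62510 0.23% and 1.35%, and AT5G02000 10.8% and 13.2%. UGT85A2 kept 30.2% and 31.4% there, UGT73B5 58.4% and 29.8% and UGT84A1 0.85% and 0.74%. Some shares rest on signals under 16, which are not shown to exceed background, so differences among such signals have little support. These include UGT71C1 on every xylem array, UGT84A1 on each phloem array and AT1G62510 on every xylem and phloem array. The part of stray cortex cells in the shares of this paragraph was not tested.

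**Figure D5:**
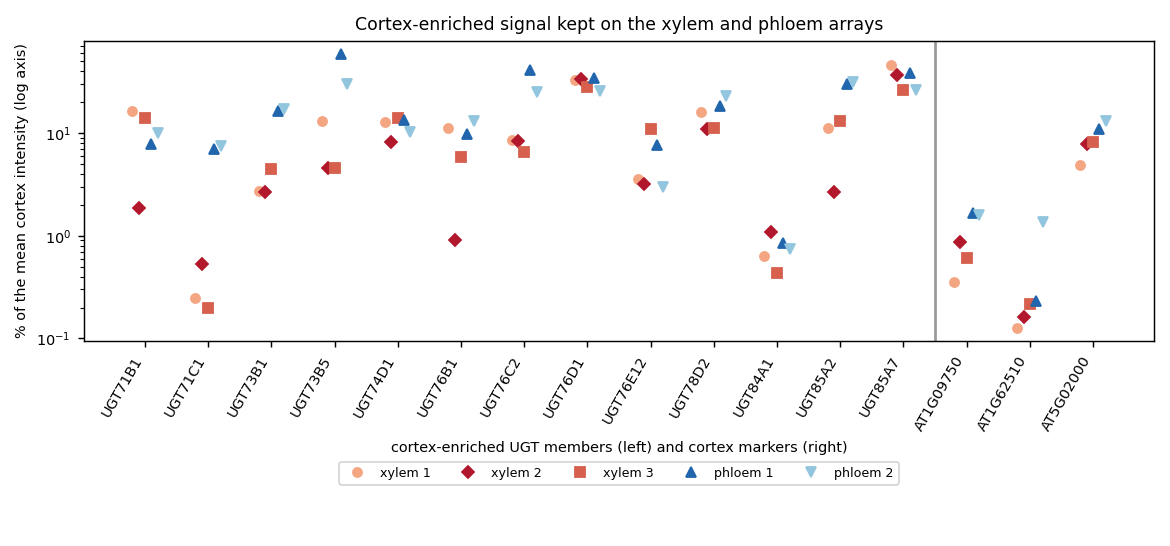
Points give the intensity of each xylem and phloem array as a percentage of the mean cortex intensity, on a log axis, for the 13 cortex-enriched UGT members and, right of the line, 3 cortex markers. Xylem replicate 2 lies far below the other xylem arrays for UGT71B1, UGT76B1 and UGT85A2, and not for the markers.

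Genes that make UGT acceptors or sugar donors, or that act on the same hormones, were thinly covered by the annotation. It names no gene for 8730 of the 22746 probe sets, so listed genes that it does not name may still be on the array. Of 141 listed genes, 15 had a probe set named with 1 gene. In xylem over cortex 4 were higher and 7 lower (13.5% and 29.1% of all probe sets), in phloem over cortex 2 were higher and 5 lower (12.2% and 14.8%), and in xylem over phloem 4 were higher and 6 lower (13.9% and 28.5%). Of 6 measured auxin-inactivating genes, 5 were lower in xylem and 3 lower in phloem than in cortex, against the shares of 29.1% and 14.8% over all probe sets. GH3.17 (AT1G28130), which conjugates auxin to amino acids, had 16.0, 3.87 and 21.8 in xylem and 278.9 and 232.6 in phloem, against 1113, 1142 and 641.3 in cortex. Its fold changes against cortex were -5.04 in xylem and -1.81 in phloem, with limma adjusted p-values of 2.23e-06 and 0.00395, and GH3.3 from the same family had -5.20 and -3.51. DAO2, of the auxin oxidase pair, was lower by -1.89 and -1.92.

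Among phenylpropanoid genes, ALDH2C4 (AT3G24503, also REF1), which makes the ferulic and sinapic acids that UGT84A enzymes accept, had 76.1, 70.4 and 81.1 in xylem and 666.9 and 677.1 in phloem, against 2533, 2424 and 2112 in cortex. It was lower by -4.69 (SE 0.14) in xylem and by -1.78 (SE 0.15) in phloem. HCT, of the monolignol branch, was higher in xylem by 2.51 over cortex. Of 3 flavonoid genes CHIL was lower in xylem and phloem (-4.06 and -3.65), as UGT78D2 was. DFR passed in no comparison, and BAN did not pass against cortex. BAN was lower in xylem than in phloem by -0.79 (limma adjusted p = 0.0301), with 2.02, 1.83 and 2.06 in xylem and 27.4 and 6.27 in phloem. The UDP-sugar pyrophosphorylase USP (AT5G52560), which forms UDP-sugars, had 2999, 3019 and 2948 in xylem and 1461 and 1031 in phloem, against 614.9, 749.1 and 680.2 in cortex. That order, xylem over phloem over cortex without overlap, was also the order of UGT74F1 and of HCT, but not of the other xylem-enriched member, UGT87A2. The share of all probe sets with this order was not counted, so no link between these genes was read from it. BSMT1 (AT3G11480), which methylates salicylic acid, had 25.2, 59.3 and 15.6 in xylem and 2.86 and 1.63 in phloem, against 1.43, 3.28 and 1.36 in cortex, and was higher in xylem by 1.36 over cortex (limma adjusted p = 0.00378). BCAT4 of the glucosinolate list was dim and higher in xylem than in cortex by 0.55 (limma adjusted p = 0.0337), and BGLU33 of the abscisic acid list passed in no comparison. No gene of the cytokinin and brassinosteroid lists had a probe set that the annotation names with 1 gene, so none was examined.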

How the data were processed

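Transcripts of 8 sorted samples were measured on Affymetrix arrays after a 2-cycle amplification, per the labels' protocols. The deposited table gives linear intensities, a value for each probe set on each array, from MAS5, per the submitters' processing notes, without a version or target value. The table holds no detection calls and no depth. Of 22810 probe sets, 64 controls were left out and 22746 tested. Names came from the platform annotation, and RefSeq locus tags from assembly TAIR10.1, with 13513 probe sets listed with 1 gene. A further 503 were listed with several genes and 8730 with none. Intensities were taken as log2(value + 16), not normalized again, and fitted with limma 3.58.1 in R 4.3.3, 1 mean per population over all 8 arrays, with an intensity trend, 5 residual and 3.66 prior degrees of freedom, and Benjamini-Hochberg adjustment within each comparison over all probe sets. A log2 fold change understates the change of dim probe sets.

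Members, gene lists and tests were chosen with earlier results of these data known. Values of every array are given for members enriched in 1 population, for those called with a log2 fold change of at least 2 in size, and for the brightest of a group with neither; the other members are given by calls, and those shown with array values beside them were chosen after their values were seen. The fit was tested on simulated data in which only probe sets at or above the median mean level were changed. Of the 44 members 17 lie at or above that level, and recovery of changes in dimmer ones was not examined. Alternatives were the added value, 4 scalings, a filter on dim probe sets, no trend, 2 populations at a time, a replicate block, probe set types and leaving out arrays. The share plots and counts used Python 3.11.15 and matplotlib 3.10.9.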

Additional observations from a re-analysis of the deposited data

How the results depend on the processing

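Over 20 alternatives, the 62 member fold changes (55 called) gave 1216 values, of which 1120 kept direction and side of the threshold, 72 lost a call, 24 gained one and none changed sign. Without probe sets under the median, 17 members were left, and the members called were 14 for xylem against cortex and 11 for phloem against cortex, since fewer were tested. Spike-in scaling gave 28 called for phloem against cortex and 20 enriched in cortex; the cause was not tested. With 1 added, or after trimmed-mean scaling, 1 member was enriched in phloem (UGT71C3 in both). Leaving out 1 array gave 24 to 26 called for xylem against cortex, 8 to 19 for phloem against cortex, 11 to 15 for xylem against phloem, and 2, 0 to 1 and 7 to 14 enriched in xylem, phloem and cortex. Leaving out xylem replicate 2 and phloem replicate 2 together, chosen after seeing the data, gave 11 for phloem against cortex, where 1 phloem array was left.

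Arrays share replicate numbers across populations, and same-numbered arrays deviated together with correlations of -0.10, -0.04 and 0.15 between xylem and cortex, of -0.0012 and -0.03 between phloem and cortex and of 0.13 and 0.15 between xylem and phloem, so the numbers were not taken to pair them. Of the 6 xylem and cortex arrays, 2 correlated best with their own number. With the replicate block 27 members were called between xylem and cortex, 18 between phloem and cortex and 15 between the vascular populations, and 2, 0 and 13 were enriched in xylem, phloem and cortex. Among the member fold changes the block ended 2 calls (UGT71C2 for xylem over phloem, UGT85A2 for phloem over cortex) and made 4 (UGT72B3 for phloem over cortex, UGT76E1 for xylem over cortex and UGT74B1 for xylem over both). The absence of detection calls limits what can be said of dim members.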
